A study of Mus musculus with 6 samples.

Results

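WNT ligands, their Frizzled receptors and co-receptors, and the secreted antagonists that bind either side were followed in mouse mesoderm with and without Gli3R, the form of the Hedgehog effector Gli3 that represses transcription. The set holds 42 of the 24975 genes in the deposited table, chosen by symbol from the Wnt, Fzd, Lrp5 and Lrp6, Ror, Sfrp, Frzb, Dkk and Wif1 families: 19 ligands, 10 Frizzled receptors, 4 co-receptors and 9 secreted antagonists. Of these, 23 had enough reads to be tested, 17 had reads but too few, and 2 (Wnt1 and Wnt10b) had 0 reads in all 6 libraries. Control embryos were Mesp1-Cre/+;R26-tdTomato/+ and Gli3R embryos Mesp1-Cre/+;R26-Gli3R-IRES-Venus/+, so both groups carried Mesp1-Cre, whose driver is a gene of the nascent mesoderm, and they differed in reporter as well as in Gli3R. Cells were sorted at embryonic day 7.5, by tdTomato in controls and by Venus in Gli3R embryos per notes in the deposited table, at 1000 cells per library from pooled littermates. Each of 3 litters gave 1 control and 1 Gli3R library, so each group has 3, and replicate numbers below are litter numbers. Gli3R and the reporter with its gate cannot be told apart as sources of a difference.

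WNT proteins are secreted, lipid-modified signals. Through a Frizzled receptor with Lrp5 or Lrp6 they stabilise beta-catenin, and through Frizzled with Ror1 or Ror2 they steer cell polarity and movement without it. Sfrp proteins, Frzb and Wif1 bind the ligands outside the cell, while Dkk1 and Dkk2 block Lrp5 and Lrp6. In the gastrula, Wnt3 is needed to form the primitive streak and Wnt3a to keep producing posterior and paraxial mesoderm. Wnt8a is also a ligand of the streak, and Dkk1 protects anterior tissue from WNT signals.

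The promoter of the ligand gene Wnt3a is shown because it was the 1 member called in any of the fits run, and those of Wnt5b and Wnt11 because their windows held a motif searched for. RefSeq windows of build GRCm38.p6, from 250 bases before to 50 after a start site, were found for 29 of the 42 members (32 windows). The window of Wnt3a lies on the minus strand at chr11:59290702-59291001. Of the 3 windows of Wnt5b, the one with the motif lies on the minus strand at chr6:119449337-119449636, and of the 2 of Wnt11, the one with it lies on the plus strand at chr7:98834862-98835161. Capitals mark the TCF and LEF core, the letters CTTTGAT on either strand, bound by the nuclear partners of beta-catenin.
Wnt3a: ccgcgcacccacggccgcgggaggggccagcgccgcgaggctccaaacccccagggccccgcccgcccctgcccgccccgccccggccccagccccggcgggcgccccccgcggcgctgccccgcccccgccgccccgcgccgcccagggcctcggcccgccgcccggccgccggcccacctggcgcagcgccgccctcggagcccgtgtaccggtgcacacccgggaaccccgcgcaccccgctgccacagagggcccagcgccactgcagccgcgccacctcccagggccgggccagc
Wnt5b: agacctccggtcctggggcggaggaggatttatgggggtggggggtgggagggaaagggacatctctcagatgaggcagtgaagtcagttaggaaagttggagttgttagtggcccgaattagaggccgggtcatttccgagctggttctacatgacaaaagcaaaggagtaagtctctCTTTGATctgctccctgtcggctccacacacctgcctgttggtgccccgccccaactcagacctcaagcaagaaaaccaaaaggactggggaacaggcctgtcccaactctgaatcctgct
Wnt11: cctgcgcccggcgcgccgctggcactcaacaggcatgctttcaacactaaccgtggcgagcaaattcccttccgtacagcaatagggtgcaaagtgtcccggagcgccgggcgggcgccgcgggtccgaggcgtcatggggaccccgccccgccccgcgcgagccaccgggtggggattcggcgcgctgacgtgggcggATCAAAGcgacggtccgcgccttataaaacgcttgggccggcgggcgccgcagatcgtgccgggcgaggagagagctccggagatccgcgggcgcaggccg
Windows were not in the table for Dkk3, Fzd2, Fzd3, Fzd6, Fzd8, Lrp5, Lrp6, Sfrp1, Sfrp4, Wnt10a, Wnt5a, Wnt7b and Wnt8a. The TCF and LEF core was found in windows of 2 of the 29 members, starting 71 bases before the start site in Wnt5b and 51 before it in Wnt11. It occurs in 4.29% of all 27025 genes with windows. The GLI core, GACCACCC on either strand, was in 0 of the 29 members, and 0.932% of all genes hold it. The absence of these letters concerns these windows alone. The Wnt3a window shown above is 86.3% G and C, against a median of 52.7% over all windows, and 0.0457% of all windows reach that share. Windows of members had a median of 66.5%, and those of Wnt4 and Wnt9a came close to Wnt3a at 84.3% and 83.3%.

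Library totals ran from 5481190 to 12635151 counts, and 1 count stood for 0.0777 to 0.186 CPM (counts scaled to library size, with edgeR's TMM factors). Control replicate 1 was the shallowest library and stood apart on the first principal component (35.0% of the variance). The cells were checked against marker lists. Of 20 mesoderm markers 19 were tested. Their sum ran from 599 to 632 CPM in controls and from 685 to 854 CPM with Gli3R, but 12 of the 19 log2 fold changes were negative (median -0.29). At an unadjusted p under 0.05, 5 were higher (Msx1, Bmp4, Etv2, Hand1 and Kdr), against 3.56% of all genes. Another 5 were lower (Foxf1, T, Mesp2, Msgn1 and Tbx6), against 3.29%. After adjustment over all genes 0 passed. With litter as a block, Msx1 and Bmp4 rose and T fell (edgeR quasi-likelihood test, adjusted p = 0.0121, 0.0424 and 0.0373). The 18 endoderm markers summed to 375 to 596 CPM in controls and to 525 to 660 CPM with Gli3R. Most of this was Apoe (383 and 482 CPM on average), with Cer1 (62.5 and 67.1) and Hhex (13.2 and 24.0). Ttr, Afp, Hnf4a and Foxa2 were at most 4.10 CPM in any library, but Apoa1 reached 23.1 CPM in Gli3R replicate 2. Other endoderm markers were read too. In control and Gli3R libraries Rbp4 averaged 7.52 and 8.59 CPM, Trh 6.21 and 4.33 CPM, and Sox17 5.24 and 4.08 CPM. At an unadjusted p under 0.05, 1 of the 11 tested was higher (Hhex) and 2 were lower. The lower genes were Cldn6, at 9.10 ± 7.62 and 0.916 ± 1.00 CPM (SD, n = 3), and Spink1, at 8.57 ± 7.62 and 1.84 ± 1.57 CPM. Trophoblast and extraembryonic markers summed to 833 to 1539 CPM in controls and to 1054 to 1708 CPM with Gli3R. Most of this was Krt18, Krt8 and Hand1, the last also a mesoderm marker, and Elf5 was at 0 throughout. At an unadjusted p under 0.05, 1 of the 6 tested was higher (Hand1) and 2 were lower. The lower genes were Cdx2, at 12.0 and 8.06 CPM on average, and Plet1, at 4.63 and 2.30 CPM. The part of these cell types in the results below was not tested. Over all 11913 genes tested, 3 (0.0252%) rose and 13 (0.109%) fell with Gli3R (edgeR's quasi-likelihood test, threshold 0.05 on p-values adjusted by Benjamini-Hochberg).

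Wnt3a (Entrez gene 22416) was read in every control library and in none with Gli3R. It had 11, 14 and 4 reads in control replicates 1, 2 and 3, or 2.04, 1.35 and 0.507 CPM, and 0 reads in each Gli3R library, 1 of which was the deepest of the 6. Against the limit of 3 counts over the Gli3R group that a count of 0 allows, it was at least 11.1-fold lower, with the control reads taken as exact. The 95% exact binomial limit, which includes the counting error of those reads, was 8.47-fold lower, and both cover counting error only. Its 29 reads were too few for the low-count filter. When the filter was dropped, Wnt3a fell, as the only member of the 40 then tested that passed (edgeR quasi-likelihood, adjusted p = 0.0155). In that fit 59 of 18719 genes (0.315%) fell. DESeq2 called it as well (Wald test, adjusted p = 0.0159), in a fit where 49 of 13272 genes fell. Wnt3a was also called by the unfiltered edgeR quasi-likelihood fit with litter as a block (adjusted p = 0.00688), where 124 of 18719 genes fell. Its call was lost without Gli3R replicate 2 (edgeR quasi-likelihood, adjusted p = 0.0761), without litter 1 (0.0544) and without litter 2 (0.0821), while every such fit kept Wnt3a lower. Over all alternatives of this fit the adjusted p ran from 9.5e-05, without control replicate 3, to 0.0821. In bulk samples, fewer cells that make a transcript and less of it per cell cannot be told apart.

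The other ligands known from the streak, Wnt8a and Wnt3, were read in all 6 libraries, and their changes were not tested against that of Wnt3a. Wnt8a (20890) had control values of 3.90, 1.73 and 0.888 CPM in litters 1, 2 and 3, against 2.02, 0.384 and 0.307 CPM with Gli3R. It was lower with Gli3R in each litter, but the groups overlapped, since Gli3R replicate 1 exceeded control replicates 2 and 3. Its log2 fold change of -0.96 ± 0.71 (SE) missed the threshold (edgeR quasi-likelihood, adjusted p = 0.939, and 0.375 with the litter block, where it was -1.34 ± 0.43). With 1 library left out, the log2 fold change of Wnt8a ran from -0.35 (without control replicate 1) to -2.50 (without Gli3R replicate 1). Wnt3 (22415) stood at 2.41, 1.54 and 2.41 CPM in control and at 2.10, 1.79 and 4.60 CPM in Gli3R replicates 1, 2 and 3. Its highest library was thus a Gli3R library, at a log2 fold change of 0.40 ± 0.42 (SE) that was not called (adjusted p = 0.985, edgeR). In Gli3R replicate 1, 26 reads of Wnt8a and 27 of Wnt3 stood beside 0 of Wnt3a.

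Markers of the streak and caudal epiblast were also lower in the Gli3R libraries. All 10 tested of 11 had a negative log2 fold change, with a median of -0.75 against -0.01 over all genes tested, 0 passed over all genes (edgeR quasi-likelihood test; 4 were lower at an unadjusted p under 0.05, against 3.29% of all genes), and T and Cdx1 fell with the litter block. In litters 1, 2 and 3 they summed to 200, 140 and 106 CPM in controls and to 117, 65.4 and 47.0 CPM with Gli3R. Both groups thus followed the litters in the same order, and Wnt3a and Wnt8a in the control libraries did so too. T, the Brachyury gene of the streak, was at 43.6, 16.4 and 7.99 CPM in control replicates 1, 2 and 3. In the Gli3R libraries it was at 8.08, 5.13 and 3.53 CPM. Control replicate 3 and Gli3R replicate 1 were thus alike in T, with 4 and 0 reads of Wnt3a. They come from different litters and were picked after their values were seen. Of the streak markers only Fgf8 and Fgf4 were lower in that Gli3R library than in that control library. Fgf8 was at 6.09 CPM in control replicate 3 and 3.88 CPM in Gli3R replicate 1, and Fgf4 at 1.52 and 0.0777 CPM. The epithelial gene Cdh1 was at 2.28 and 0.544 CPM in these libraries. Of 14 epiblast and neural markers 8 were tested and 7 of these were negative, with a median log2 fold change of -1.08. Over all genes 0 passed, and 5 were lower at an unadjusted p under 0.05, against 3.29% of all genes. They summed to 153 to 277 CPM in controls and to 144 to 158 CPM with Gli3R, mostly Dnmt3b (111 and 100 CPM on average). Sox1 was at 0 in all libraries. The epithelial gene Cdh1 was at 4.36 ± 2.57 and 0.454 ± 0.129 CPM (SD, n = 3), and it fell with the litter block (edgeR quasi-likelihood test, adjusted p = 0.0327). The 8 node and notochord markers, 2 of them tested, summed to 9.77 to 47.3 CPM in controls and to 5.06 to 9.16 CPM with Gli3R. Most of that sum is T, also a streak marker, and without T it was 1.78 to 3.71 and 1.09 to 1.79 CPM. Nog, the other tested node marker, stood at 1.01 ± 0.45 and 1.28 ± 0.26 CPM (SD, n = 3). Among the rest, Foxa2 had 19 reads in control and 0 in Gli3R libraries, Noto 11 (all in control replicate 1) and 0, and Foxj1 0 in both. Chrd had 4 reads in each group, Shh 1 in control and 0 in Gli3R libraries, and Nodal 0 and 1. The part of streak, epiblast or node cells in the difference of Wnt3a was not tested.

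**Figure D1:**
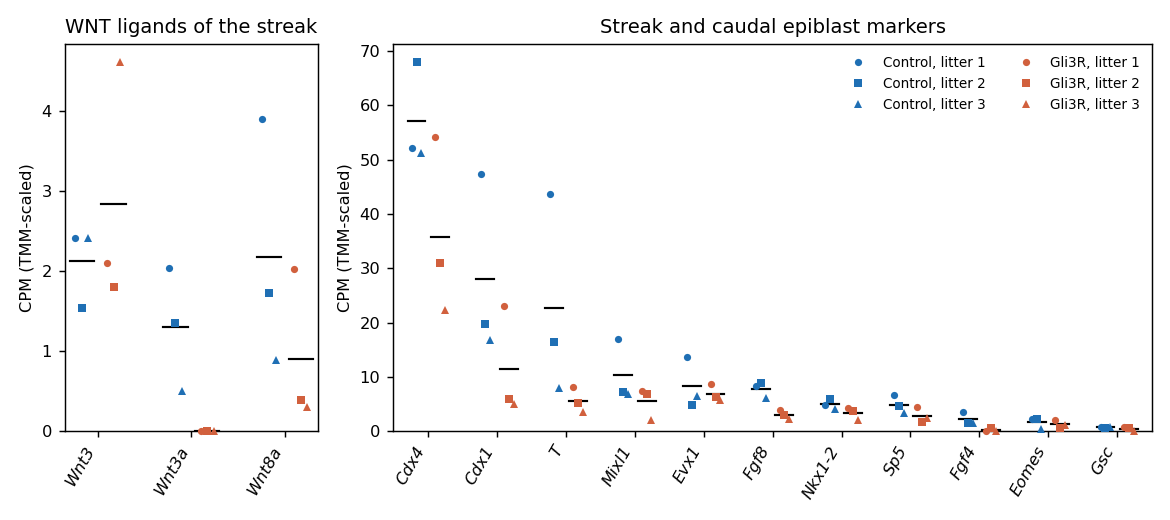
Level in CPM (TMM-scaled, linear axes) of 3 WNT ligands of the streak (left) and of 11 streak and caudal epiblast markers (right) in each library. Symbols mark litters, colours mark groups and lines the mean of 3 libraries. Wnt3a lies at 0 in all 3 Gli3R libraries, whereas Wnt3 and Wnt8a were read in all 6.

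To compare levels between genes, CPM were divided by the length of the longest coding transcript. In control libraries Wnt2 (22413), known from the early heart and allantois, led the ligands at 8.35 ± 1.44 CPM per kb (SD, n = 3), and held 37.0% of the summed ligand level. Wnt5b (22419) followed at 5.12 ± 1.00 and Wnt5a (22418) at 2.88 ± 0.23 CPM per kb. Both are mostly linked to the route without beta-catenin. The ranges of these 3 over the control libraries did not overlap (6.83 to 9.68, 4.38 to 6.26 and 2.62 to 3.04 CPM per kb). With the shortest transcript in place of the longest, Wnt5a came to 5.53 CPM per kb, beside 5.74 for Wnt5b and 8.35 for Wnt2. Wnt11 came to 8.67 CPM per kb, but on an entry of 634 bases, beside 3451 for its longest. Whether that entry is complete was not checked. The order thus depends on the transcript used. Wnt11, Wnt4 and Wnt8a came next at 1.59 ± 0.66, 1.25 ± 1.00 and 1.24 ± 0.89 CPM per kb and did not differ beyond their spread. Wnt3, Wnt6 and Wnt3a lay at 0.689, 0.671 and 0.470 CPM per kb, and the 10 other ligands were at 0.143 or less.

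**Figure D2:**
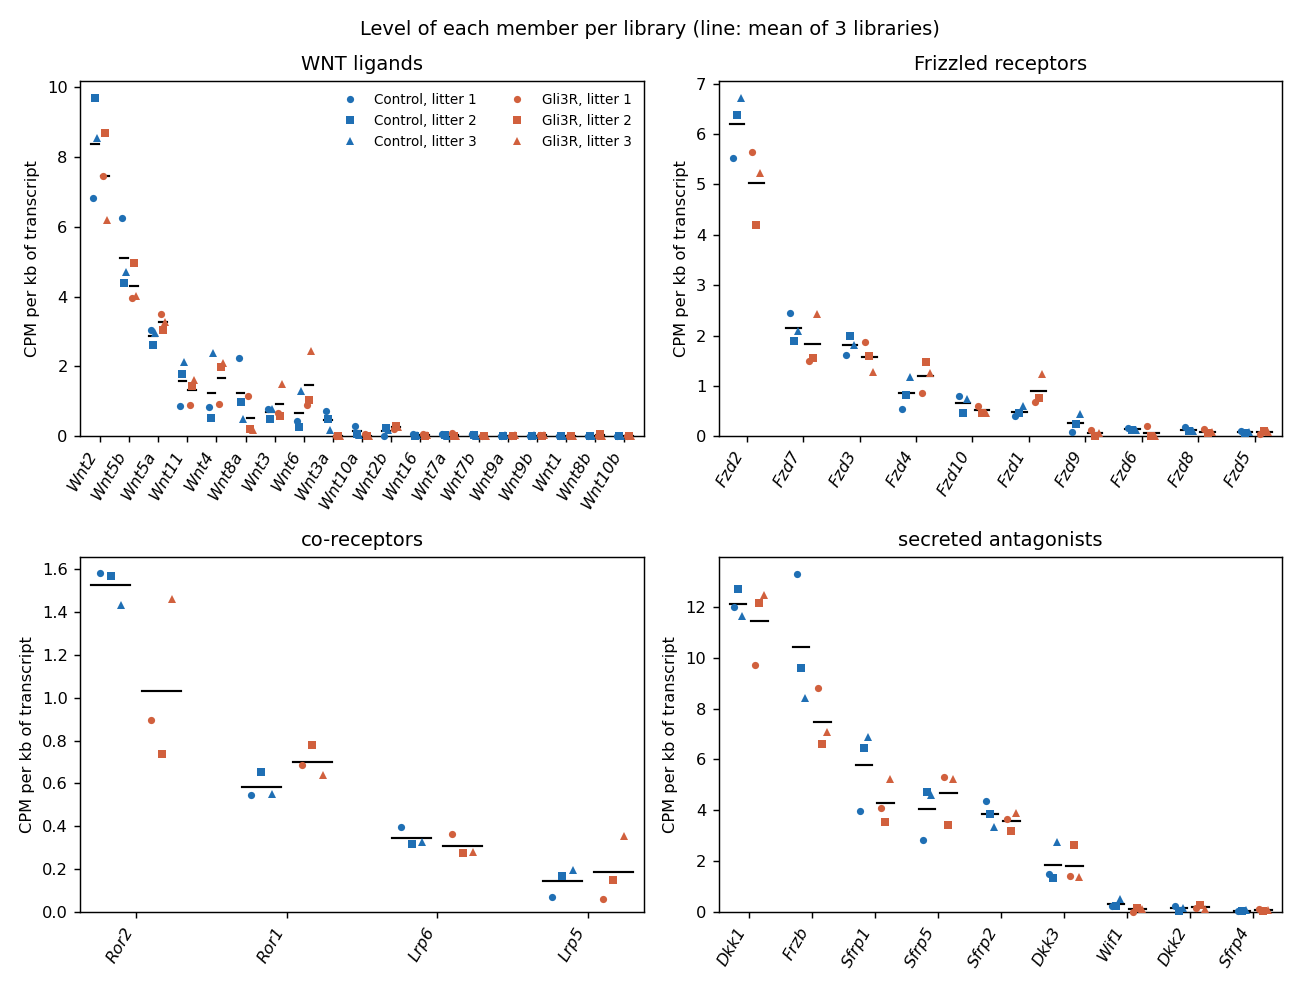
Level of each of the 42 members in CPM per kb of its longest coding transcript (linear axes from 0, a different scale in each panel), by class and in order of the control mean. Symbols mark litters, colours mark groups and lines the mean of 3 libraries. Wnt2, Fzd2, Ror2 and Dkk1 lead their classes in the control libraries.

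The abundant ligands differed little between the groups. Wnt2 read 15.4, 21.8 and 19.3 CPM in control and 16.8, 19.6 and 13.96 CPM in Gli3R replicates 1, 2 and 3, which overlap (log2 fold change -0.18 ± 0.18, SE). For Wnt5b the values were 14.8, 10.4 and 11.2 CPM in control and 9.40, 11.8 and 9.51 CPM with Gli3R (-0.23 ± 0.20), and these overlap as well. Wnt5a had 21.3, 18.4 and 20.8 CPM in control and 24.5, 21.4 and 22.9 CPM with Gli3R. Each Gli3R library of Wnt5a thus lay above each control library, by a small margin (log2 fold change 0.19 ± 0.13; edgeR adjusted p = 0.929). Wnt11 (22411), expressed in early cardiac mesoderm, averaged 5.49 ± 2.27 CPM without and 4.54 ± 1.27 CPM with Gli3R (SD, n = 3). Wnt4 (22417) stood at 3.53, 2.21 and 10.02 CPM in control and 3.88, 8.33 and 8.75 CPM with Gli3R. Its control replicate 3 lay far above its other control libraries, and its log2 fold change of 0.38 ± 0.52 (SE) turned to -0.03 without control replicate 2.

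Ligand genes neighbour each other on a chromosome in 4 pairs, and in 3 of these the partners differed in their number of reads. In each of these 3 pairs 1 partner had 9 reads or fewer in all, too few to compare its change with that of the other. Wnt6 (22420) had 32 reads in control and 74 in Gli3R libraries, while its neighbour Wnt10a had 7 and 2. By library, Wnt6 was at 0.928, 0.577 and 2.66 CPM in control and 1.86, 2.18 and 5.06 CPM in Gli3R replicates 1, 2 and 3. It was higher with Gli3R in each litter, with overlapping groups, and did not pass (log2 fold change 1.07 ± 0.59, SE; edgeR adjusted p = 0.857, and 0.336 with the litter block). Leaving out 1 library moved the log2 fold change of Wnt6 from 0.54 (without Gli3R replicate 3) to 2.02 (without control replicate 3). Wnt3a, with 29 and 0 reads, neighbours Wnt9a, with 1 and 1. Wnt3, with 48 and 71 reads, neighbours Wnt9b, with 1 and 4. Wnt1 and Wnt10b, the remaining pair, had no reads: 0 counts allow up to 0.127 CPM over the control group and 0.110 CPM over the Gli3R group.

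Fzd2 (57265) was the leading Frizzled receptor gene at 6.21 ± 0.62 CPM per kb in control libraries, 48.5% of the summed Frizzled level. Fzd7 (14369) and Fzd3 (14365) followed at 2.15 ± 0.29 and 1.81 ± 0.19 CPM per kb with overlapping ranges, and Fzd4 (14366), Fzd10 and Fzd1 lay at 0.851, 0.671 and 0.487 CPM per kb. Fzd5, Fzd6, Fzd8 and Fzd9 were at 0.258 or less.
By library, Fzd2 stood at 20.2, 23.4 and 24.6 CPM in control and 20.7, 15.4 and 19.2 CPM in Gli3R replicates 1, 2 and 3. It was lower with Gli3R in litters 2 and 3 and nearly equal in litter 1 (log2 fold change -0.30 ± 0.15, SE; edgeR adjusted p = 0.800). Fzd7 had 11.1, 8.56 and 9.51 CPM in control and 6.76, 7.05 and 11.0 CPM with Gli3R, and Fzd3 had 20.6, 25.3 and 23.2 against 23.8, 20.2 and 16.3 CPM. Both sets overlap, at log2 fold changes of -0.24 ± 0.24 and -0.19 ± 0.16 (SE). Fzd4, a receptor of vascular development, was higher in each litter, at 3.71, 5.58 and 7.86 CPM in control and 5.75, 9.87 and 8.44 CPM with Gli3R, and did not pass (0.45 ± 0.30).

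Fzd1 (14362) was the receptor gene with the smallest p. It stood at 1.67, 1.92 and 2.54 CPM in control and 2.87, 3.20 and 5.22 CPM in Gli3R replicates 1, 2 and 3. Every Gli3R library lay above every control library, on 49 against 96 reads. The log2 fold change of 0.83 ± 0.34 (SE) had an unadjusted p of 0.0349 and did not pass over all genes (edgeR quasi-likelihood, adjusted p = 0.698, and 0.420 with the litter block).

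Co-receptor genes were sparse. Ror2 (26564), a receptor for Wnt5a, read 6.31, 6.25 and 5.71 CPM in control and 3.57, 2.95 and 5.83 CPM in Gli3R replicates 1, 2 and 3. The control values were tight and litters 1 and 2 lay well below them, but Gli3R replicate 3 lay within their range (log2 fold change -0.59 ± 0.28, SE; edgeR adjusted p = 0.751). Its relative Ror1 (26563) stood at 3.15, 3.75 and 3.17 CPM in control and 3.96, 4.49 and 3.68 CPM with Gli3R, higher in each litter (0.26 ± 0.24). Ror2 made up 58.7 ± 2.0% of the summed co-receptor level in control and 45.4 ± 7.7% in Gli3R libraries (SD, n = 3, no test). Lrp6 (16974) had 3.71, 2.98 and 3.04 CPM in control and 3.42, 2.56 and 2.61 CPM with Gli3R. Lrp5 (16973), at 0.371, 0.866 and 1.01 CPM in control and 0.311, 0.769 and 1.84 CPM with Gli3R, was too low to be tested. Per kilobase of the longest transcript the control order was Ror2 (1.53), Ror1 (0.583), Lrp6 (0.346) and Lrp5 (0.145). With the shortest transcript Lrp6 came to 4.50 and Ror2 to 1.63. That entry of Lrp6 has 722 bases, beside 9368 for its longest. Whether so short an entry is complete was not checked, so the place of Lrp6 by it is not firm.

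Secreted antagonists had the highest summed level, with the longest transcripts, at 38.6 ± 0.32 CPM per kb in sum in the control libraries beside 22.7 ± 1.12 for ligands and 12.8 ± 1.03 for Frizzled receptors (SD, n = 3). Dkk1 (13380) led at 12.1 ± 0.55 CPM per kb, with Frzb (20378) at 10.4 ± 2.56, Sfrp1 (20377) at 5.77 ± 1.56, Sfrp5 (54612) at 4.05 ± 1.06, Sfrp2 at 3.85 ± 0.50 and Dkk3 at 1.86 ± 0.79. The ranges of Dkk1 and Frzb overlap, as do those of Sfrp1, Sfrp5 and Sfrp2. Wif1, Dkk2 and Sfrp4 were at 0.331 or less.
Dkk1 differed little between the groups, at 29.1, 30.9 and 28.3 CPM in control and 23.6, 29.5 and 30.2 CPM in Gli3R replicates 1, 2 and 3 (log2 fold change -0.09 ± 0.13, SE), and it turned to 0.02 without Gli3R replicate 1.

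Frzb, which encodes a secreted WNT-binding protein, stood at 41.9, 30.2 and 26.5 CPM in control and 27.7, 20.8 and 22.2 CPM in Gli3R replicates 1, 2 and 3. It was lower with Gli3R in each litter, although Gli3R replicate 1 lay above control replicate 3. The log2 fold change of -0.46 ± 0.19 (SE) had an unadjusted p of 0.0353 and did not pass (edgeR quasi-likelihood, adjusted p = 0.698, and 0.264 with the litter block, the smallest of any member there). Sfrp1 had 17.4, 28.2 and 30.1 CPM in control and 17.9, 15.5 and 22.9 CPM with Gli3R. It was lower in litters 2 and 3 and alike in litter 1, where control replicate 1 was its lowest control library (log2 fold change -0.45 ± 0.22; edgeR adjusted p = 0.770). Sfrp5 stood at 5.38, 8.95 and 8.75 CPM in control and 10.1, 6.54 and 9.97 CPM with Gli3R (0.19 ± 0.26, turning to -0.11 without litter 1), with overlapping groups. In sum, the 9 antagonists came to 38.5, 39.0 and 38.4 CPM per kb in control and 33.2, 32.0 and 35.6 in Gli3R replicates 1, 2 and 3. The groups did not overlap in this sum, which is given as a description, while those of the ligand sum (22.5, 21.6 and 23.9 against 19.98, 22.4 and 21.7) did.

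Of the 23 members tested, 0 rose and 0 fell over all genes (edgeR quasi-likelihood, adjusted by Benjamini-Hochberg), where 0.0252% of all genes rose and 0.109% fell. With the litter block 0 members rose and 0 fell, against 0.0755% and 0.151% of all genes. At an unadjusted p under 0.05, 1 member was higher (Fzd1) and 1 lower (Frzb), or 8.70% in all, against 3.56% and 3.29% of all genes, or 6.85% in all. With the block there were 5 (Wnt6, Wnt8a, Fzd1, Sfrp1 and Frzb), or 21.7%, against 8.73%. The groups did not overlap for 2 members (8.70%), Wnt5a and Fzd1, both higher, where 5.62% of all genes were higher and 6.33% lower without overlap, 12.0% in all. In all 3 litters 9 members (39.1%) moved 1 way, against 30.3% of all genes (15.0% higher and 15.3% lower). Higher in each litter were Wnt5a, Wnt6, Fzd1, Fzd4 and Ror1, and lower in each were Wnt8a, Fzd10, Lrp6 and Frzb. Fzd10 was nearly equal in litter 2, at 1.539 CPM in control and 1.538 CPM with Gli3R. The median log2 fold change was -0.14 over the 23 members, with 8 positive and 15 negative. A p that misses the threshold does not show that these genes were equal between the groups.

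**Figure D3:**
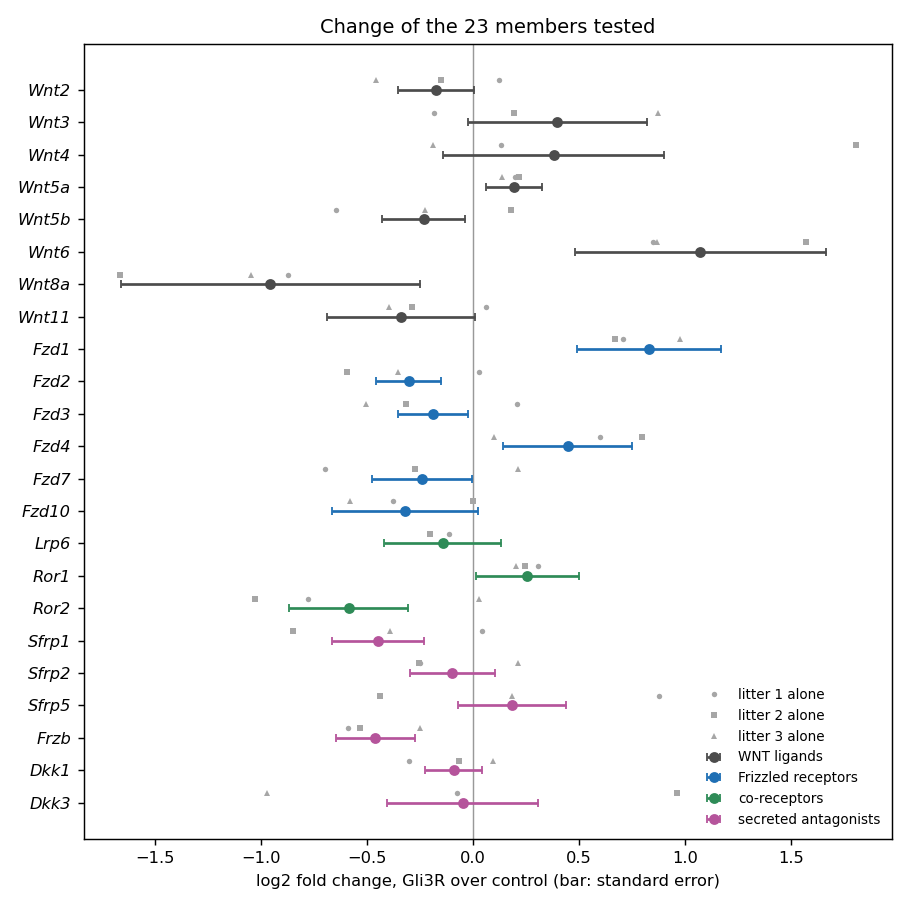
Log2 fold change of Gli3R over control for the 23 members tested, with its standard error (coloured circles and bars, by class), and the difference within each litter on log2 CPM with a prior count of 2 (grey symbols). Wnt6 (1.07) and Fzd1 (0.83) lie highest and Wnt8a (-0.96) lowest.

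Members with too few reads had wide counting intervals, most of which included no difference. Wif1 (24117), a secreted WNT-binding inhibitor, had 3, 6 and 9 reads in control and 0, 3 and 2 in Gli3R replicates 1, 2 and 3, and was 4.14-fold lower (95% interval 1.48 to 14.3, exact binomial, counting error only). Each control library lay above each Gli3R library in CPM, with 0.557 CPM the lowest control and 0.384 CPM the highest Gli3R value. Both of these values stand for 3 reads, so the gap between them comes from library depth alone. The share of all low-count genes whose groups separate in this way is not given here. Without the filter Wif1 did not pass (edgeR adjusted p = 0.829). For Fzd9, 15 reads in controls stood against 5 with Gli3R (3.45-fold lower, 1.19 to 12.1), with overlapping groups. For Wnt10a the 7 against 2 reads gave an interval from 0.766 to 39.7-fold lower, and for Wnt2b, with 13 against 23 reads, Gli3R over control was 1.54 (0.748 to 3.31). Intervals of Fzd5, Fzd6, Fzd8, Lrp5, Dkk2 and Sfrp4 also included no difference. Wnt7a, Wnt7b, Wnt8b, Wnt9a, Wnt9b and Wnt16 had 2 to 6 reads in all 6 libraries together.

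**Figure D4:**
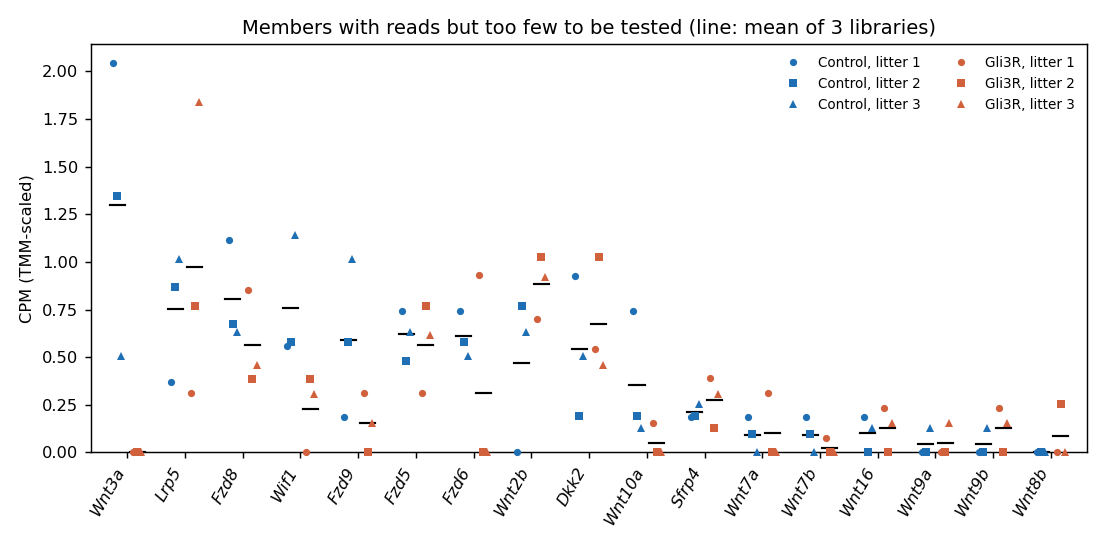
Level in CPM (TMM-scaled, linear axis) of the 17 members with reads but too few to be tested, in each library and in order of control reads. Symbols mark litters, colours mark groups and lines the mean of 3 libraries. For Wnt3a and Wif1 every control library lies above every Gli3R library, but the nearest libraries of Wif1 held 3 reads each.

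The rest of the pathway was read from lists chosen by role. Counts at an unadjusted p under 0.05 are to be read against 3.56% of all genes higher and 3.29% lower. Among genes for making and releasing WNTs, 0 of 14 tested passed (edgeR quasi-likelihood test, adjusted over all genes; 2 were lower and 0 higher at an unadjusted p under 0.05), with a median log2 fold change of -0.05. The proteoglycan gene Gpc3 had the smallest p there, at 478 ± 74.3 CPM in control and 316 ± 33.4 CPM with Gli3R (SD, n = 3; log2 fold change -0.60 ± 0.12, SE; edgeR adjusted p = 0.175). Sdc1, another proteoglycan gene, averaged 44.4 ± 3.29 and 35.6 ± 3.78 CPM. Wls, the carrier that escorts WNTs to the cell surface, averaged 302 ± 61.2 and 369 ± 15.5 CPM. Among the R-spondins, which amplify WNT signals, and their receptors and ubiquitin ligases, 0 of 5 tested passed (1 higher and 1 lower at an unadjusted p under 0.05). The higher was the receptor gene Lgr5, at 3.25 ± 0.40 and 4.97 ± 0.52 CPM, and the lower was Rspo3, at 73.5 ± 16.4 and 55.5 ± 6.28 CPM (both adjusted p = 0.678, edgeR). Lgr4, a related receptor gene, averaged 7.34 ± 3.31 and 5.19 ± 0.89 CPM.

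Inside the cell, 0 of 28 beta-catenin relay genes, 0 of 14 TCF genes and nuclear co-factors and 0 of 21 polarity and non-canonical genes passed (edgeR quasi-likelihood test, adjusted over all genes). Their median log2 fold changes were 0.06, -0.03 and 0.10. At an unadjusted p under 0.05 the relay list had 1 gene higher and 2 lower, and the other lists 1 lower each. The relay gene that was higher was Amer1, which encodes a partner of APC, at 17.8 ± 2.13 CPM in control and 23.8 ± 3.42 CPM with Gli3R (log2 fold change 0.44 ± 0.16, SE). Tnks2, a regulator of axin, averaged 111 ± 3.62 and 92.2 ± 6.29 CPM (-0.27 ± 0.09), and Btrc, part of the ligase that marks beta-catenin for breakdown, 25.7 ± 3.03 and 20.7 ± 0.60 CPM (-0.31 ± 0.13). The transcription factor gene Lef1 averaged 29.7 ± 10.8 and 19.3 ± 2.81 CPM (-0.59 ± 0.23), with Hdac1 at -0.12 ± 0.08 and Tcf7l2 at -0.26 ± 0.21 next in that list. Of the polarity genes, Vangl1 averaged 26.7 ± 4.87 and 18.3 ± 3.04 CPM (-0.56 ± 0.18), while the next by p, Rhoa and the WNT receptor gene Ryk, had positive log2 fold changes of 0.13 ± 0.07 and 0.25 ± 0.14. Of 6 tested membrane and secreted modulators outside the set, 0 passed, and 0 had an unadjusted p under 0.05. The smallest p-values there were those of Mesd, a chaperone of Lrp5 and Lrp6 (-0.10 ± 0.09), Kremen1, a Dkk receptor gene (0.27 ± 0.47), and the secreted antagonist gene Cer1 (0.09 ± 0.16).

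Of 22 WNT response genes tested, Ccnd1, a cell cycle gene, fell from 90.6 ± 2.54 to 48.8 ± 7.03 CPM (SD, n = 3; edgeR adjusted p = 0.0264), and 0 rose. The call of Ccnd1 was lost in 5 of the 6 fits that left out 1 library: without control replicate 2 (edgeR adjusted p = 0.197), control replicate 3 (0.0629), Gli3R replicate 1 (0.0788), Gli3R replicate 2 (0.117) or Gli3R replicate 3 (0.0715). It was lost without litter 2 (0.635) and litter 3 (0.130) too, and its log2 fold change stayed between -0.78 and -0.96 in all these fits. At an unadjusted p under 0.05, 10 of the 22 were lower and 1 higher, and the median log2 fold change was -0.55. The list shares 6 genes with the streak markers (Sp5, Cdx1, Cdx4, T, Evx1 and Fgf8), so the counts of both lists are not separate. It also holds the member Dkk1. Among other overlaps, Lgr5 is in the R-spondin list, Lef1 in the TCF list, and T, Msgn1 and Tbx6 are mesoderm markers. Those counts are not separate from the ones here either. T and Cdx1 fell as well with the litter block. Next by p were Fgf8, at 7.76 ± 1.47 and 3.04 ± 0.80 CPM, and Tnfrsf19, at 33.5 ± 3.95 and 23.1 ± 1.89 CPM. The general feedback gene Axin2 stood at 4.70 ± 2.94 CPM in control and 4.66 ± 1.14 CPM with Gli3R (log2 fold change 0.03).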

How the data were processed

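The authors deposited raw counts per Entrez gene, 1 column per library. Tools listed, without roles, in the submitters' processing notes are TopHat2 2.0.14, featureCounts, Subread 1.4.6, FastQC and edgeR, with build mm9. Annotation and strand setting: not given in the sources used here; overlapping genes are uncertain. Clontech's SMARTer kit gave the cDNA and Nextera XT the libraries, per the labels' protocols. The protocol names no molecular identifiers, so amplified copies may count as reads.

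Members and gene lists were chosen with earlier results of these data known. Members named with every library value had an unadjusted p under 0.05 in the fit with or without the litter block, or were the 4 highest of a class per kb by the mean over all 6 libraries, which put Wnt4 (1.459 CPM per kb) just above Wnt11 (1.454); each pathway list was named by its called genes and its 3 smallest p. Wnt3, Wnt3a, Wif1, Axin2, the single marker genes and the other library values were added after their values were seen. Genes were filtered with filterByExpr (minimum count 10), scaled by TMM and tested over all 11913 genes with the quasi-likelihood test of edgeR 4.0.16 in R 4.3.3, two-sided, at 0.05 on p-values adjusted by Benjamini-Hochberg. Standard errors come from its F statistic. The script was tested on simulated data. Alternatives were the litter block, DESeq2 1.42.0, other scalings and filters, and leaving out libraries or litters; those for Wnt3a without the filter, for Ccnd1 alone and for the node sum without T were added after seeing the data. Promoters come from RefSeq (GRCm38.p6) and transcript lengths from GENCODE M21 (same build, not the counts' build), both matched by symbol. The labels pair libraries by litter, and the correlation of their deviations was 0.168 in litter 1, 0.187 in litter 2 and 0.0755 in litter 3, against -0.269 to 0.162 between litters. Chi-square per gene between libraries of a group ran from 4.63 to 13.9, above sampling noise. Each library is a pool of littermates, and p-values concern differences among such pools.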

Additional observations from a re-analysis of the deposited data

How the results depend on the processing

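For all genes, the counts called (3 higher and 13 lower) were 9 and 18 with the litter block, 38 and 49 with DESeq2, 49 and 59 with no filter, and 160 and 124 with no filter and the block. They were 1 and 12 at 5 CPM or more in 3 libraries and 5 and 14 with library size alone. Leaving out 1 library gave 0 to 2 higher and 0 to 16 lower. Without litter 1, 2 or 3 there were 5, 0 and 0 higher and 22, 2 and 0 lower. Members called stayed at 0 higher throughout and at 0 lower except for 1, Wnt3a, with DESeq2, with no filter and with no filter and the block. Other pathway genes called lower went from 1 to 3 with the block or DESeq2, 5 with no filter and 10 with no filter and the block; 0 to 2 when 1 library was left out; and 4, 0 and 0 without litter 1, 2 or 3. Of 282 refitted log2 fold changes of 18 named members, 277 kept their direction and their side of the threshold. None of the 18 was called in any fit, and Wnt3a, whose call changed between fits, is not among them. Wnt4 turned to -0.0284 without control replicate 2 and to -0.177 without litter 2 (-0.0284 to 1.30 when 1 library was left out), Dkk1 to 0.0191 without Gli3R replicate 1 and to 0.0104 without litter 1 (-0.156 to 0.0191), and Sfrp5 to -0.112 without litter 1. Apart from the pathway genes above, the replicate block changed no call of a named member. The cause was not tested. For the 19 members under the filter, depth allows only differences several-fold in size to be seen.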
